A study of Mus musculus with 6 samples.

Results

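The integrin and cadherin genes of the mouse, the main receptors by which cells hold on to matrix and to each other, were compared between IG27 and WT glial cells. Members were chosen by symbol alone, as the integrin alpha genes (*Itga* with a number or one of the letters of the family), the integrin beta genes (*Itgb*) and the cadherins named *Cdh* with a number. The rule gave 49 of the 22911 genes that could be named on the array, 26 integrins and 23 cadherins, and all of them had a probe. WT cells were OS3 glial cells, a line from newborn C3H/HeN mouse brain (C3H and male, by the labels) immortalized with SV40, that carried the empty vector. IG27 cells were OS3 cells transfected with a plasmid for the histone variant H3.3 with the K27M exchange (H3F3A_K27M), in which lysine 27 is replaced, and grown out under drug selection. Both lines grew for 2 days in minimum essential medium α with serum, insulin and glucose, and 3 samples of each were measured, each on 1 Cy3 array of 1 Agilent slide. The labels do not say how many clones IG27 cells stand for or that the 3 samples of a group were separate transfections, so the p-values measure the spread between samples of 1 line.

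Integrins are heterodimers of 1 alpha and 1 beta chain that bind matrix proteins outside the cell and join them to talin, kindlin and the actin cytoskeleton inside it, and the pair of chains sets which ligand is bound. Classical cadherins bind cadherins of the neighboring cell through their outer repeats, and their tails bind beta-catenin and p120-catenin, which link and stabilize the junction. Glial progenitors and gliomas carry both families, with N-cadherin as the usual classical cadherin of neural cells and the αv, α6 and β1 chains as well-studied integrins of glioma.

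The value of a gene is its normalized log2 intensity, log2 of the processed signal minus the 75th percentile of its array, so that 0 is the signal that 3 of 4 probes do not exceed. Between 58.8% and 61.2% of probes were well above background on each complete array, and no spot was saturated. Differences are given as log2 fold change, IG27 minus WT, from limma with Benjamini-Hochberg adjustment over the 14898 genes tested, and a gene was called at an adjusted p under 0.05. Whether any probe of the histone gene reads the plasmid's transcript is not stated, and the labels could not be checked through it. Glial markers were present, with 10 of 13 well above background on all 5 arrays that carry this call. Their summed level was 327 to 344 in WT and 259.6 to 272.7 in IG27 cells (linear signal, in multiples of the 75th percentile). Such a sum follows its brightest genes, here *Vim* (means of 7.11 in WT and 6.96 in IG27 samples) and *Gfap* (6.64 and 5.57). Single glial markers went both ways. *S100b* (log2 4.93), *Pdgfra* (2.36), *Olig1* (1.48) and *Olig2* (1.51) were higher in IG27 cells, as was *Slc1a3*, which had no WT signal well above background. *Aldh1l1* (-1.72), *Slc1a2* (-1.03), *Nes* (-0.495) and *Sox10* (-0.37) were lower. *Gfap* was lower at -1.07 by the probe used, with its other tested probe on the other side of 0. *Ptprc*, *Tyrobp*, *Laptm5* and *Cx3cr1* of leukocytes and microglia, *Cldn5*, *Tek* and *Emcn* of endothelium and *Krt8*, *Krt18* and *Krt19* of epithelium were not well above background on any of these arrays, while *Pecam1* of endothelium, *Csf1r* and *Cd68* of myeloid cells and *Esrp1* of epithelium were so on all 5. Of the 6 neuron and 6 fibroblast markers, 2 of each list were well above background on all 5 arrays. Summed levels were 17.6 to 20.01 in WT and 9.97 to 11.02 in IG27 cells for neuron markers. Those of fibroblast markers were 68.7 to 85.8 and 32.6 to 36.0. In WT samples these sums mostly followed *Tubb3* (means of 3.78 in WT and 1.15 in IG27 samples) and *Col5a1* (5.95 and 4.83). Single genes of both lists went both ways. *Map2* rose from a mean of -6.25 in WT, well above background on 1 of 3 arrays, to 1.78 in IG27 samples. *Tubb3* was lower (log2 -2.63), as was *Stmn2*, which had no IG27 signal well above background. *Dcn* and *Fap* were higher, with no WT signal well above background, while *Pdgfrb* (-1.16) and *Col5a1* (-1.12) were lower. The samples were cultures of OS3 lines, and what part any other cells had in the values of the members was not tested.

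Of the 49 members, 32 were tested and 25 were called, 12 higher and 13 lower in IG27 cells. Leaving out *Itga10* and *Cdh11*, whose probes lay on both sides of 0, the counts were 11 and 12. The 25 were 78.1% of the tested members, beside 70.5% of all genes tested (30.5% higher and 40.0% lower), so the share called was near that of the array as a whole. The groups did not overlap in 78.1% of the tested members and in 75.7% of all genes tested. A difference of at least 2-fold was called in 14 tested members, 8 higher (7 without *Itga10*) and 6 lower, which was 43.8% of them beside 23.1% of all genes. Because 4 members (*Itgb3*, *Itgb7*, *Itga2b* and *Cdh15*) passed the filter on dim probes through 1 group only, the filter favored a difference in them, and their calls are no support for a difference of the families. Of the 28 members with signal well above background in both lines, 21 were called (75%, beside 69.6% of 13538 such genes) and 11 were called with at least a 2-fold difference (39.3%, beside 18.4%). The median log2 fold change was -0.06 over the 21 tested integrins and -0.15 over the 11 tested cadherins, beside -0.07 over all genes, so neither family moved one way as a whole.

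**Figure D1:**
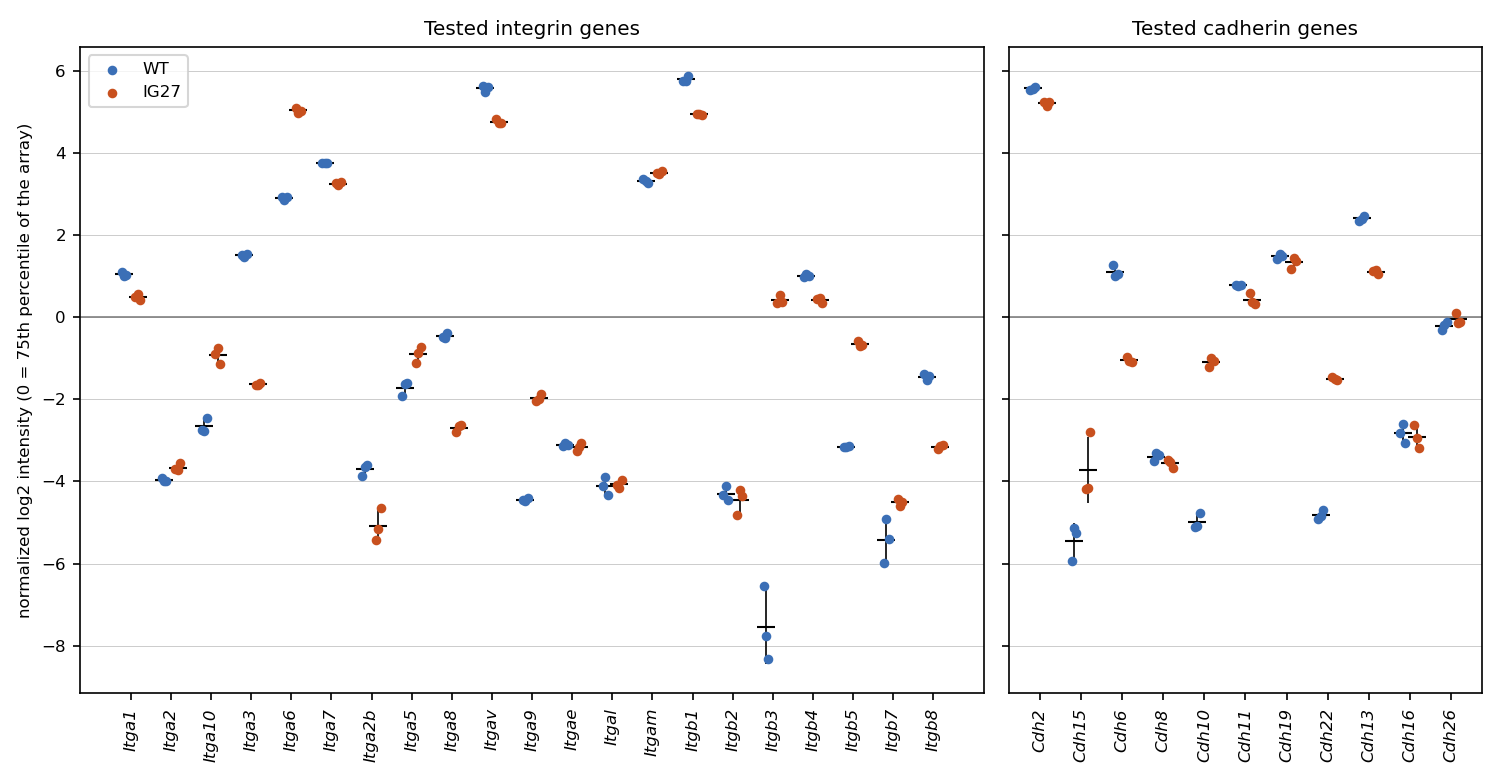
Normalized log2 intensity (y axis, 0 is the 75th percentile of the array) of the 21 tested integrins and 11 tested cadherins (x axis), with 1 point per array, the mean as a short line and 1 SD as a bar (n = 3 per group). The IG27 points of *Itgb3*, *Itgb5*, *Itga6*, *Itga9*, *Cdh10* and *Cdh22* lie above all WT points, those of *Itga3*, *Itga8*, *Itgb8* and *Cdh6* lie below them, and heights of different genes come from different probes and cannot be ranked.

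The promoters of a pair of beta chains that moved in opposite directions, *Itgb5* (higher) and *Itgb8* (lower), and of 2 type II cadherins of 1 row of such genes that did so, *Cdh10* (higher) and *Cdh6* (lower), are shown to set their sequence beside their values. They are from RefSeq (GRCm38.p6), each 300 bases from 250 before to 50 after the start of the gene, 5′ to 3′ on the strand of the gene. *Itgb5* is at chr16:33829415-33829714 (plus strand), *Itgb8* at chr12:119238227-119238526 (minus), *Cdh6* at chr15:13173626-13173925 (minus) and *Cdh10* at chr15:18820079-18820378 (plus). Capitals mark the letters GGGCGG (a GC box) or CAGGTG (an E-box of the kind that Snail and Zeb factors bind), on either strand.
Itgb5: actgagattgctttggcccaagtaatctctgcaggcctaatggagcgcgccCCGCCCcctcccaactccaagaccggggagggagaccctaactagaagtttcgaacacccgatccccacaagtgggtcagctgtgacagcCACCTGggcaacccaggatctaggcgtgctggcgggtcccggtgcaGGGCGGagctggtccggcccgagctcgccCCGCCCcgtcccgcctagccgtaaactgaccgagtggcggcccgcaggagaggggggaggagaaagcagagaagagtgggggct
Itgb8: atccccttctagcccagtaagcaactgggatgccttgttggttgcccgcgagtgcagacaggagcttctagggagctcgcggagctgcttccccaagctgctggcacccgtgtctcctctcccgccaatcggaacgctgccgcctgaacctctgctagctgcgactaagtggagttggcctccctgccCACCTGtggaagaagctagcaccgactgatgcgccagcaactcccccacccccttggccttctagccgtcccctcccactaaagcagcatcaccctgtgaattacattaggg
Cdh6: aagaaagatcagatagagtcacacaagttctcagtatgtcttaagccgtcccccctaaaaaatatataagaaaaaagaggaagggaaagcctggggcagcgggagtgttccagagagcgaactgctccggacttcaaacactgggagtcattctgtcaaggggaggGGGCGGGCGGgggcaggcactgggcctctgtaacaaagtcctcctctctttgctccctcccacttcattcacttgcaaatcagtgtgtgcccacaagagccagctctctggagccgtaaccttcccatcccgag
Cdh10: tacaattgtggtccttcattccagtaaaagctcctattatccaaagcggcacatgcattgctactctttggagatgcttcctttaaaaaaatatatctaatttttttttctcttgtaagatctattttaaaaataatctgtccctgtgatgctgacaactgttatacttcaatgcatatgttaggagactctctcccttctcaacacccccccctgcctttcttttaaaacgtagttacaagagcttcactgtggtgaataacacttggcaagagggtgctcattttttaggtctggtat
The *Itgb5* promoter held 20 CpG dinucleotides, with 3 GC boxes and 1 E-box. That of *Itgb8* held 13 CpG, no GC box and 1 E-box. That of *Cdh6* held 8 CpG and 2 GC boxes that overlap, and that of *Cdh10* held 2 CpG, the fewest among the tested members with a promoter, and none of the motifs. Promoters of 31 of the 49 members were matched by symbol, 35 in all. GC boxes were in 14 of these and in 35.7% of all 32851 promoters of the table, E-boxes in 9 and in 20.2%, and the AP-1 letters TGANTCA in 3 and in 7.81%. The median number of CpG was 12.5 in 20 tested and 12 in 11 untested members, and 7 in all promoters.

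Among the beta chains, which pair with the alpha chains and carry the tail that talin binds, *Itgb3* and *Itgb5* were far higher in IG27 cells and *Itgb8*, *Itgb1* and *Itgb4* were lower. Of 8 beta genes 7 were tested, with 3 called higher and 3 called lower (85.7% called, beside 70.5% of all genes). Of the higher ones, *Itgb3* and *Itgb7* passed the filter on dim probes through IG27 cells alone, which favored a difference in them. Their calls are no support for a difference of the class. *Itgb3* encodes the beta chain of the vitronectin receptor αvβ3, best known from platelets, osteoclasts and growing vessels. Its brightest probe read -6.55, -7.77 and -8.31 in WT samples 1 to 3, none well above background, and 0.33, 0.53 and 0.37 in IG27 samples 1 to 3. Set against the lower bound for the WT arrays, *Itgb3* was at least 72.6-fold higher in IG27 cells (adjusted p = 1.14e-05 from limma, in a test it entered through IG27 arrays alone). With normexp background correction, which adds 50 to every signal, the fitted log2 fold change was 4.39, below that bound. The other probe of *Itgb3* moved the same way, from -5.97, -7.49 and -8.26 to -4.27, -4.27 and -4.17, but by its own bound the difference was only at least 2.89-fold. The size of the rise therefore rests on 1 probe, while the absence of WT signal well above background holds for both.

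*Itgb5* encodes a beta chain that pairs with αv and also binds vitronectin. It read -3.17, -3.17 and -3.13 in WT and -0.59, -0.72 and -0.67 in IG27 samples, a 5.64-fold rise (log2 2.50, standard error 0.05, adjusted p = 2.69e-07 from limma). The 3 IG27 values all lay above the WT values, and the spread within each group was a small part of the gap. *Itgb8*, whose product pairs with αv to activate latent TGF-beta and is well known in astrocytes and neuroepithelium, went the other way. It read -1.38, -1.54 and -1.45 in WT and -3.20, -3.15 and -3.11 in IG27 samples and was 3.24-fold lower in IG27 cells (log2 -1.70, standard error 0.06, adjusted p = 2.05e-06 from limma). The alpha chain these 3 beta chains share, *Itgav*, read 5.62, 5.47 and 5.60 in WT and 4.81, 4.72 and 4.72 in IG27 samples. It was 1.76-fold lower in IG27 cells (log2 -0.81, standard error 0.06, adjusted p = 4.63e-05 from limma), so *Itgav* fell while 2 of these partners rose and 1 fell. Another partner of αv, *Itgb6*, an epithelial chain, was not well above background on any array.

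*Itgb1* encodes the beta chain with the most alpha partners. It read 5.74, 5.75 and 5.86 in WT and 4.95, 4.95 and 4.93 in IG27 samples, 1.79-fold less in IG27 cells (log2 -0.84, standard error 0.05, adjusted p = 1.90e-05 from limma), and its other probe gave -1.0. *Itgb4*, the beta chain of the laminin receptor of hemidesmosomes, read 0.96, 1.06 and 1.01 in WT and 0.44, 0.45 and 0.33 in IG27 samples (log2 -0.60, standard error 0.06; limma, adjusted p = 1.37e-04). The groups did not overlap for either gene. The beta chains of leukocytes moved little or lay near the floor of the array. *Itgb2* did not pass the test (log2 -0.16, 95% interval -0.58 to 0.26, adjusted p = 0.430 from limma). *Itgb7* was called higher (log2 0.92, standard error 0.26, adjusted p = 0.0183 from limma), but it was well above background on 2 of 3 WT arrays, and the call was lost without IG27 replicate 1 (adjusted p = 0.0656 from limma) or 3 (0.0571) and with slide row as a block (0.191).

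Among the alpha chains that bind laminin, the main protein of basement membranes, *Itga6* was higher and *Itga3* and *Itga7* lower in IG27 cells. *Itga6*, a marker of neural stem cells and of glioma stem-like cells, read 2.91, 2.85 and 2.92 in WT and 5.09, 4.98 and 5.02 in IG27 samples. This was a 4.40-fold rise (log2 2.14, standard error 0.05, adjusted p = 4.87e-07 from limma), and its other probes gave 2.15 and 2.39. The probe of *Itga6* that gave 2.39 was dim in WT samples (mean -5.40) and well above background on 4 of the 5 arrays with the call. The direction thus rests on all 3 probes and the size on the brighter ones. *Itga3*, whose product pairs with β1 in the receptor of laminins of the α5 and α3 kinds, had the largest fall of the tested members. It read 1.52, 1.47 and 1.53 in WT and -1.66, -1.64 and -1.61 in IG27 samples and was 8.83-fold lower in IG27 cells (log2 -3.14, standard error 0.04, adjusted p = 9.87e-08 from limma). In IG27 cells its other probe had no signal well above background and gave at least a 2.11-fold fall, so the direction held for both probes of *Itga3* and the size for 1. *Itga7*, the laminin receptor chain of muscle, read 3.76, 3.74 and 3.75 in WT and 3.25, 3.21 and 3.28 in IG27 samples (log2 -0.51, standard error 0.04, adjusted p = 1.03e-04 from limma), and its other probe gave -0.47.

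The alpha chains that bind the RGD motif of fibronectin, vitronectin and related proteins were all tested and all called, 1 higher and 3 lower (4 genes, beside 70.5% of all genes called). Among the 3, *Itga2b* entered the test through WT arrays alone, which favored a difference in it, so its call is no support for a difference of the class. *Itga8*, a chain of mesenchyme and of developing kidney that pairs with β1 to bind nephronectin, read -0.49, -0.52 and -0.39 in WT and -2.79, -2.64 and -2.64 in IG27 samples. It was 4.68-fold lower in IG27 cells (log2 -2.23, standard error 0.07, adjusted p = 9.76e-07 from limma). *Itga5*, the alpha chain of the classical fibronectin receptor, read -1.92, -1.63 and -1.61 in WT and -1.11, -0.88 and -0.73 in IG27 samples (log2 0.81, standard error 0.13, adjusted p = 0.00155 from limma). The groups of *Itga5* did not overlap, with an SD of 0.171 in WT and 0.195 in IG27 samples. *Itga2b*, the platelet fibrinogen receptor chain that pairs with β3, read -3.87, -3.64 and -3.61 in WT and -5.42, -5.17 and -4.64 in IG27 samples, where it was well above background on 1 of the 2 arrays that carry the call (log2 -1.37, standard error 0.20, adjusted p = 0.00115 from limma).

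*Itga9*, whose product pairs with β1 to bind tenascin-C, osteopontin and VCAM-1, read -4.45, -4.48 and -4.39 in WT and -2.06, -2.0 and -1.87 in IG27 samples. This was a 5.53-fold rise (log2 2.47, standard error 0.06, adjusted p = 5.83e-07 from limma), or 1.49 on the log2 scale with normexp. The other probe of *Itga9* was well above background on no array (means -7.28 in WT and -5.52 in IG27 samples), so the rise rests on 1 probe. *Itga4*, the other member of its subfamily and a chain of leukocytes and neural crest, was not well above background on any array. Among the collagen-binding alpha chains, *Itga1* read 1.09, 1.0 and 1.02 in WT and 0.49, 0.55 and 0.42 in IG27 samples (log2 -0.55, standard error 0.06, adjusted p = 1.87e-04 from limma), and its other probe gave -0.32. Its neighbor on chromosome 13, *Itga2*, with no protein-coding gene between them, read -3.92, -4.0 and -3.98 in WT and -3.70, -3.73 and -3.56 in IG27 samples (log2 0.30, standard error 0.06, adjusted p = 0.00501 from limma). The groups of both genes did not overlap, and the call of *Itga2* was lost with quantile normalization (log2 0.07, adjusted p = 0.430 from limma) and with normexp (0.19, adjusted p = 0.0765).

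No direction could be given for *Itga10*, a collagen receptor chain of cartilage, since its 2 probes went opposite ways. The probe used here read -2.75, -2.77 and -2.45 in WT and -0.89, -0.76 and -1.13 in IG27 samples (limma log2 1.73, adjusted p = 4.69e-05). The other probe of *Itga10* read -1.56, -1.60 and -1.67 in WT and -2.04, -2.06 and -1.91 in IG27 samples (log2 -0.39, adjusted p = 0.00174 from limma over all probes). Both were well above background on all 5 arrays with the call, and each separated the groups.

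The leukocyte alpha chains were *Itgam*, *Itgal*, *Itgae*, *Itgax* and *Itgad*, of which the last 2 were not well above background on any array. *Itgam*, the CD11b chain of microglia and myeloid cells, read 3.37, 3.31 and 3.26 in WT and 3.50, 3.49 and 3.56 in IG27 samples (log2 0.20, standard error 0.05, adjusted p = 0.0116 from limma), a difference that turned to -0.11 (adjusted p = 0.102 from limma) with chromosome medians taken out. Its other probe was well above background on 3 of 5 arrays, with means of -5.30 in WT and -5.15 in IG27 samples. The level of *Itgam* therefore rests on 1 probe. Beside this, 4 of 7 leukocyte and microglia markers were well above background on no array, and the summed level of the 7 was 2.64 to 2.91 in WT and 1.54 to 1.84 in IG27 cells, with *Csf1r* lower (log2 -1.57) and *Cd68* (0.31) and *Aif1* (1.66, or 0.50 with normexp) higher. These were bulk samples of cultured OS3 lines, in which fewer cells with such RNA and less RNA per cell cannot be told apart. *Itgal* (log2 0.04, 95% interval -0.25 to 0.33) and *Itgae* (-0.06, -0.21 to 0.09) did not pass the test.

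**Figure D2:**
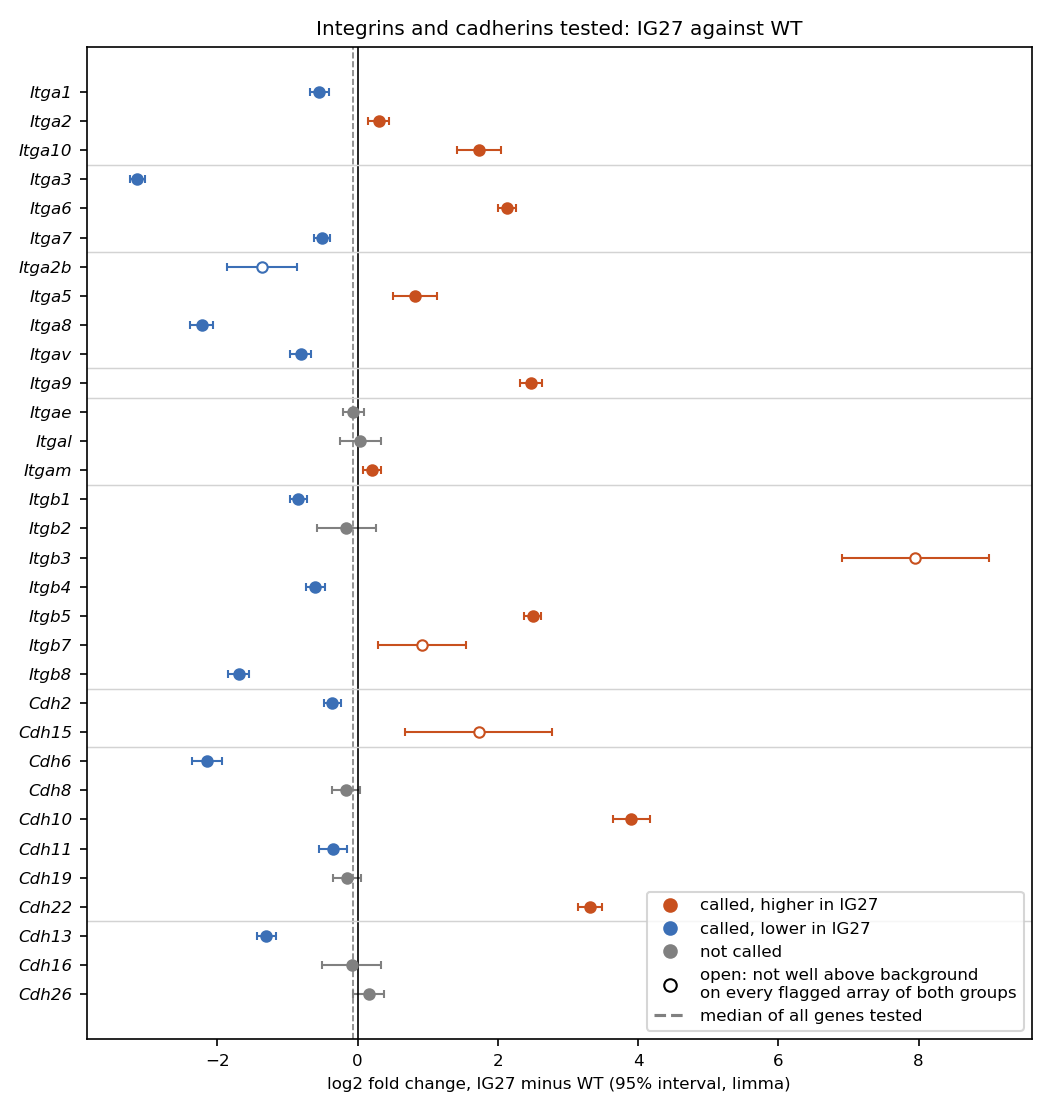
Log2 fold change, IG27 minus WT (x axis), of the 32 tested members (y axis, grouped by class from the alpha chains to the other cadherins), with 95% intervals from limma over 3 arrays per group. Of these, 12 are called higher and 13 lower on both sides of the median of all genes tested (dashed, -0.07), and open symbols mark the 4 members that were not well above background in both groups, of which *Itgb3* has only a lower bound.

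**Figure D3:**
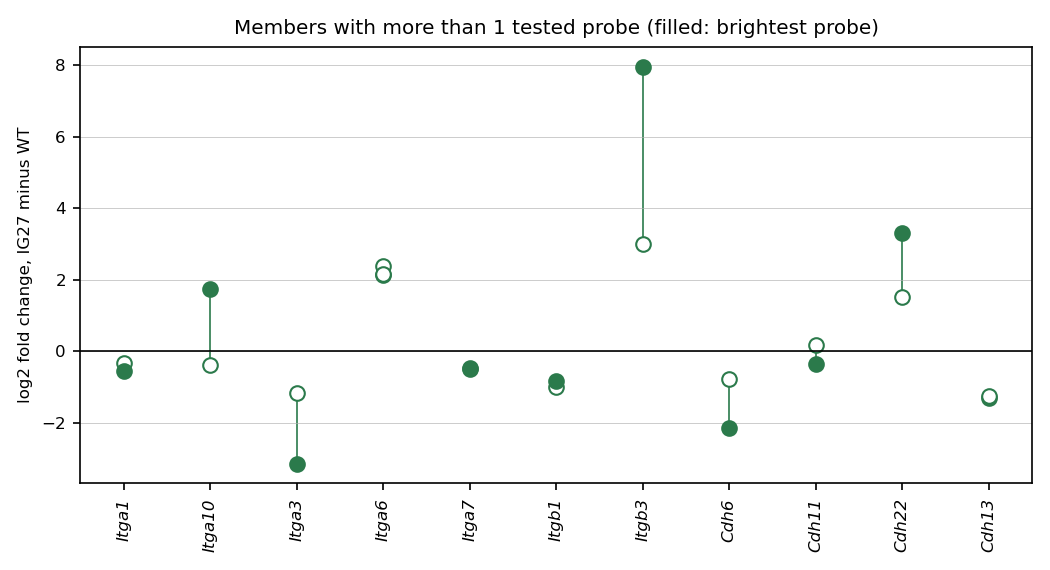
Log2 fold change, IG27 minus WT (y axis), of each tested probe of the 11 members with more than 1 (x axis), where the filled point is the probe used and a line joins the probes of a gene. In 9 of them all probes have 1 sign, while those of *Itga10* and *Cdh11* lie on both sides of 0.

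Among the cadherins, *Cdh10* and *Cdh22* were far higher in IG27 cells, *Cdh6* and *Cdh13* lower, and N-cadherin slightly lower. Of 13 type II cadherins, which share the mode of binding but pair less strictly than type I, 6 were tested, with 2 higher and 2 lower. The share called was 66.7%, beside 70.5% of all genes, and the lower ones include *Cdh11*, whose probes lay on both sides of 0. *Cdh10*, a cadherin of brain and of the vessels of the blood-brain barrier, read -5.12, -5.09 and -4.78 in WT and -1.20, -1.0 and -1.06 in IG27 samples. It was 15.0-fold higher in IG27 cells (log2 3.91, standard error 0.11, adjusted p = 7.95e-07 from limma). With normexp the log2 fold change of *Cdh10* was 2.54. *Cdh22*, a cadherin of the pituitary and brain, read -4.91, -4.84 and -4.69 in WT and -1.45, -1.52 and -1.53 in IG27 samples, a 9.93-fold rise (log2 3.31, standard error 0.07, adjusted p = 2.80e-07 from limma). Its other probe gave 1.53 (adjusted p = 2.90e-04 from limma over all probes), so the direction was shared and the size was not, and with normexp the brighter probe gave 2.07.

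*Cdh6*, a cadherin of fetal kidney and of neural crest before it migrates, read 1.27, 0.99 and 1.05 in WT and -0.98, -1.07 and -1.09 in IG27 samples. It was 4.43-fold lower in IG27 cells (log2 -2.15, standard error 0.09, adjusted p = 3.25e-06 from limma), and its other probe gave -0.77 (adjusted p = 5.42e-05 from limma over all probes). *Cdh6* and *Cdh10* lie in a row of type II cadherins on chromosome 15 (GRCm38.p6 annotation), in the order *Cdh6*, *Cdh9*, *Cdh10*, *Cdh12* and *Cdh18*, with no protein-coding gene between the first 4 and 1 before the last. In this row *Cdh6* fell, *Cdh10* rose, and *Cdh9*, *Cdh12* and *Cdh18* were not tested, as *Cdh9* and *Cdh18* were well above background on no array and *Cdh12* on 2 WT arrays and 1 IG27 array.

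*Cdh2*, the N-cadherin of neural and mesenchymal cells, read 5.54, 5.56 and 5.60 in WT and 5.23, 5.15 and 5.24 in IG27 samples (log2 -0.36, standard error 0.05, adjusted p = 8.64e-04 from limma). The groups did not overlap, and IG27 cells held 0.779 of the WT signal. The other type I cadherin tested, *Cdh15* of muscle and cerebellum, read -5.93, -5.14 and -5.26 in WT and -4.19, -4.17 and -2.80 in IG27 samples (log2 1.73, standard error 0.43, adjusted p = 0.0111 from limma). It was well above background on 2 of 3 WT arrays, and the log2 fold change was 0.84 with normexp, while the call was lost with slide row as a block (adjusted p = 0.109 from limma). The epithelial *Cdh1* (E-cadherin), *Cdh3* (P-cadherin) and *Cdh4* (R-cadherin) were not well above background on any array, so no change of these could be measured. Of the epithelial markers *Epcam* was at least 15.4-fold higher in IG27 cells (log2 2.52 with normexp) and *Krt5* at least 1.75-fold lower (a call lost in 5 of 17 other settings), and *Esrp1* did not pass the test (log2 -0.03). In this list 5 of the 8 genes were well above background on no array and the summed level of the 8 was 0.132 to 0.153 in WT and 0.401 to 0.424 in IG27 cells.

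*Cdh13*, which has no cytoplasmic tail and is held in the membrane by a lipid anchor, read 2.35, 2.39 and 2.47 in WT and 1.11, 1.14 and 1.05 in IG27 samples. It was 2.46-fold lower in IG27 cells (log2 -1.30, standard error 0.05, adjusted p = 4.08e-06 from limma), with -1.25 from its other probe. *Cdh11*, a cadherin of mesenchyme and bone, read 0.78, 0.76 and 0.78 in WT and 0.58, 0.37 and 0.31 in IG27 samples (log2 -0.35, standard error 0.08, adjusted p = 0.00786 from limma). Its other probe read -1.60, -1.54 and -1.71 in WT and -1.39, -1.53 and -1.37 in IG27 samples (log2 0.19, adjusted p = 0.0580 from limma over all probes), and the mean of both gave -0.08 (adjusted p = 0.264 from limma), so no direction could be given for *Cdh11*. *Cdh19*, a cadherin of the Schwann cell lineage, did not pass the test (log2 -0.15, 95% interval -0.35 to 0.05), nor did *Cdh8* (-0.16, -0.36 to 0.03), *Cdh16* (-0.08, -0.50 to 0.33) and *Cdh26* (0.16, -0.06 to 0.38).

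Altogether 17 members were not tested, 12 of them cadherins, and 14 of the 17 were well above background on no array. Among these was *Cdh5*, the cadherin of endothelial junctions. *Cldn5*, *Tek* and *Emcn* were also not well above background, while *Kdr*, the VEGF receptor, was at least 135-fold higher in IG27 cells (log2 5.36 with normexp). *Pecam1* was lower (log2 -0.27, adjusted p = 0.0253 from limma), a call lost in 9 of 18 other settings, and *Esam* was well above background on 2 WT arrays and on no IG27 array. The summed level of the 6 endothelial markers was 0.204 to 0.235 in WT and 2.62 to 2.69 in IG27 cells, most of the latter from *Kdr*. Besides *Cdh12*, the members not tested but well above background on some arrays were *Cdh7* (1 WT array) and *Cdh24* (2 WT arrays). *Itga11*, a collagen receptor chain of fibroblasts, was likewise below this level throughout.

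Several chromosomes that carry members had a median of their tested genes away from 0, against which the smaller differences were set. Chromosome 8, with 8 cadherins and *Itgb1*, had a median log2 fold change of -0.67 over 769 tested genes, chromosome 9 of -0.64, chromosome 2 of -0.34 and chromosome 15 of 0.30, while those of chromosomes 1, 12 and 18 lay within 0.03 of 0. Fitted again after each array was centered on the median of each chromosome, *Itgb1* was at -0.21 (adjusted p = 0.00874 from limma) in place of -0.84, and *Itgav* on chromosome 2 at -0.34 (0.00317) in place of -0.81. *Cdh13* was at -0.67 (7.02e-05), and *Cdh11* turned to 0.28 (0.0137). *Cdh8* and *Cdh16*, not called before, were at 0.46 (0.00184) and 0.54 (0.0271), and *Cdh26* at 0.64 (7.88e-04). *Itga5* on chromosome 15 was at 0.28 (0.0851) and *Itgb7* at 0.38 (0.213), so both lost their calls.

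The larger differences far exceeded the medians of the chromosomes, which ran from -0.67 to 0.33, so this centering was bound to leave their direction. They also kept their call, and the centered values show their size alone. *Itgb3*, which had no WT signal well above background and so only a lower bound, was at a fitted 8.15. *Cdh22* was at 3.79, *Cdh10* at 3.37, *Itga9* at 3.02, *Itga6* at 2.61 and *Itgb5* at 2.32. On the other side *Itga3* was at -2.94, *Cdh6* at -2.69, *Itga8* at -1.75 and *Itgb8* at -1.68. Why chromosomes differed between the lines was not tested.

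**Figure D4:**
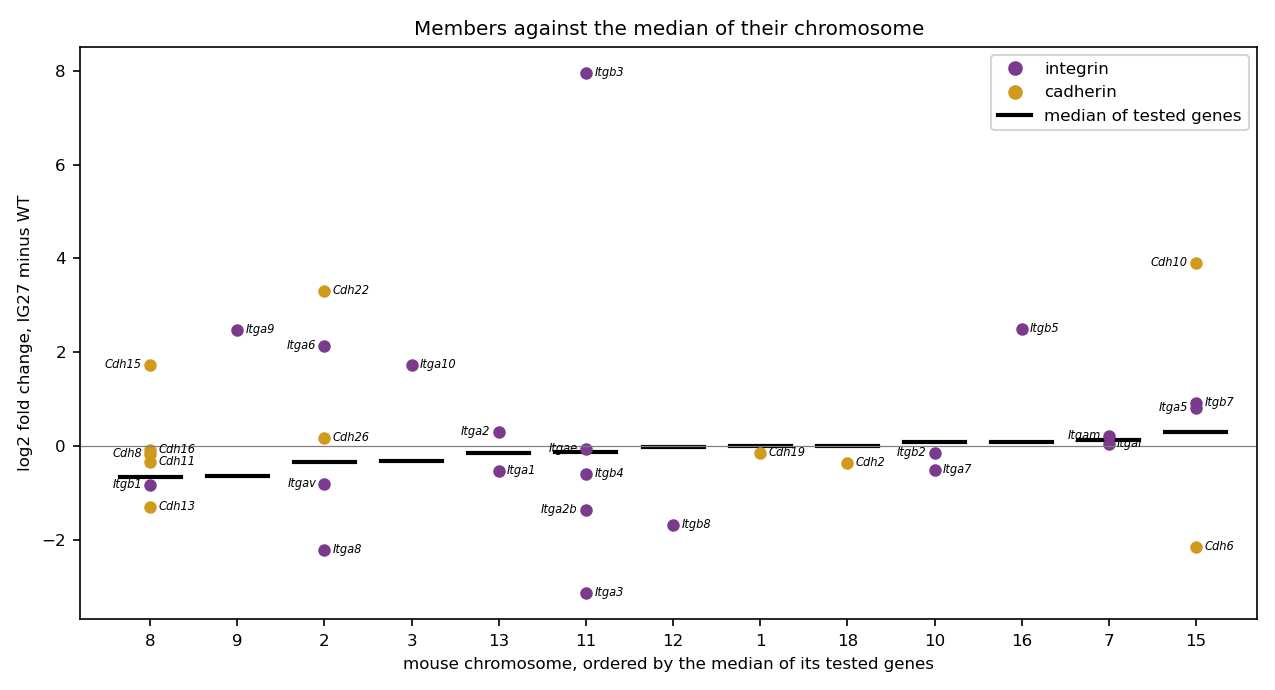
Log2 fold change, IG27 minus WT (y axis), of the tested members by chromosome (x axis, ordered by the median of all its tested genes, drawn as a black bar), with integrins and cadherins in 2 colors and *Itgb3* at its fitted value. *Itgb1* lies near the bar of chromosome 8 (-0.67), while *Cdh10* and *Cdh6* lie far on either side of that of chromosome 15 (0.30).

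The ligands of these integrins were followed through a list of 30 genes, of which 21 were tested, 11 higher and 7 lower in IG27 cells. The 18 called were 85.7% of those tested, beside 70.5% of all genes, and the median log2 fold change was 0.26, beside -0.07. *Tnc* and *Lama3* passed the filter on dim probes through IG27 cells alone, which favored a difference in them. Their calls are no support for a difference of the list. *Tnc*, tenascin-C, a matrix protein that α9β1 and αvβ3 bind, was at least 160-fold higher in IG27 cells, where WT signal was not well above background, with a fitted log2 value of 5.504 under normexp. *Tgfbi*, a matrix protein bound by αv and α3 integrins, was 36.7-fold lower (log2 -5.20, standard error 0.08, adjusted p = 1.29e-07 from limma). *Fn1*, fibronectin, was lower at -0.99 and *Vcam1*, a ligand of α4 and α9, at -0.80, while *Spp1*, osteopontin, was higher at 0.40. The collagens *Col1a1* (-0.92) and *Col3a1* (1.57) differed in opposite directions.

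The laminin chains, the ligands of α3, α6 and α7, also went both ways. *Lamb1* rose 8.15-fold (log2 3.03, standard error 0.04, adjusted p = 9.87e-08 from limma), *Lama4* rose by 1.78 and *Lamc1* by 0.23 on the log2 scale, and *Lama3* was at least 2.58-fold higher (log2 0.80 with normexp). *Lamb2* was lower at -1.88 and *Lama5* at -1.11. The call of *Lamc1* was lost in 8 of the 18 other settings, and those of the other laminin chains named here kept their side in all settings that tested them.

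Of 33 adaptors and kinases at integrin tails, 27 were tested, 10 higher and 11 lower (77.8% called, beside 70.5% of all genes, median 0.05). Of the higher ones, *Fblim1* and *Lpxn* passed the filter on dim probes through IG27 cells alone, which favored a difference in them. *Fblim1*, migfilin, a partner of filamin and kindlin, was at least 18.8-fold higher (log2 2.32 with normexp), and *Kank1*, which binds talin at the rim of adhesions, was higher by 2.54. *Bcar1* (p130Cas) was lower at -1.0 by the probe used, with its other tested probe on the other side of 0 and -0.38 with chromosome medians taken out. *Tln2*, on chromosome 9 (median -0.64), was lower at -0.93. Over the other 18 settings *Tln2* ran from -1.07 to -0.38, with its call lost in 1. *Tln1*, talin itself, was higher by 0.44, which turned to -0.056 with the chromosome medians taken out.

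Of 17 catenins and other cadherin partners, 15 were tested, 5 higher and 6 lower (73.3% called, beside 70.5% of all genes; median 0.06). *Ctnnb1*, beta-catenin, was lower at -0.80, *Arvcf*, a relative of p120-catenin, at -1.53 and *Pkp4* at -1.24. *Ctnnb1* lies on chromosome 9, with a median of -0.64, and ran from -0.87 to -0.25 over the other settings. The nectins *Nectin1* and *Nectin3*, which build junctions beside cadherins, were higher at 0.85 and 0.78. *Ctnnd1*, p120-catenin, was higher at 0.17, a call lost in 10 of 18 other settings, and *Ctnna1*, alpha-catenin, did not pass the test (-0.23, adjusted p = 0.0536 from limma).

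All 6 repressors of *Cdh1* were tested and called, 2 higher and 4 lower (median -1.12), beside 30.5% and 40.0% of all genes. Of the 2, *Twist1* passed the filter on dim probes through IG27 cells alone, which favored a difference in it. *Twist1* was at least 18.5-fold higher (log2 2.53 with normexp) and *Snai1* higher by 1.23. *Snai2* was 6.17-fold lower (log2 -2.63), *Zeb1* 4.87-fold lower (-2.28), *Twist2* lower at -1.59 and *Zeb2* at -0.64. *Zeb2*, on chromosome 2 (median -0.34), ran from -0.81 to -0.16 over the other 18 settings, with its call lost in 1. Thus *Snai1* and *Snai2*, and *Twist1* and *Twist2*, differed in opposite directions within their families. *Cdh1* itself was well above background in neither line.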

How the data were processed

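RNA of 3 WT and 3 IG27 samples was measured on 6 single-color arrays of 1 slide. The authors read each spot with Agilent Feature Extraction (10.7.3.1 by the file headers, 9.1 by the submitters' processing notes), and the deposited processed signal is an intensity on a linear scale after the software's own processing. The scanner output of IG27 replicate 2 holds 285 spots of the 62976 of the other arrays, so its values came from the deposited value table, whose column equaled those spots in all 255 single-spot probes (relative tolerance 1e-04). The columns of WT replicates 2 and 3 in that table hold each other's values, and the scanner output was used for both. The value table has no comparisons by the authors.

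Spots with an outlier mark (107 to 210 per complete array) were left out, spots of 1 probe were averaged, and log2 intensity was centered on the 75th percentile of each array. Probes were named through their RefSeq accessions with a table of GRCm38.p6 (32994 of 56605 probes, 22911 genes), and the brightest probe of a gene was used. Well above background is the software's own call, which IG27 replicate 2 lacks. A gene entered the test where its probe had this call on all complete arrays of WT or of IG27, and the groups were compared in limma 3.58.1 (R 4.3.3) by two-sided lmFit and eBayes with Benjamini-Hochberg adjustment and no block. Where a probe was not well above background on any array of 1 group, the fold was written as a lower bound: each dim array took the probe's own value or that of the dimmest probe with the call, whichever was higher, and their mean was set against that of the bright group. The fit was tested on simulated data with independent noise. Far fewer genes were changed there than were called here, so the simulation does not cover that setting. The number of arrays limits the precision.

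Members and gene lists were chosen with earlier results of these data known. The text names every called member well above background in both groups or with a bound of at least 4-fold, partner subunits, the 2 largest rises and falls called in each list, and list genes a member binds. The marker genes with values, the untested members and the promoters shown were chosen after values were seen. The alternatives were the 5 complete arrays, quantile normalization, normexp background correction, no filter and a stricter filter, outlier spots retained and all probes of a gene averaged. Further ones were a trended eBayes, the replicate number or slide row as a block, centering on chromosome medians and each array left out. The last was the methods' threshold of an unadjusted p of at most 0.05. Normexp was run on the median spot signal and median local background of the 5 complete arrays, not on the processed signal.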

Additional observations from a re-analysis of the deposited data

How the results depend on the processing

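Of the 25 called members, 18 kept their call and direction in each of the 18 other settings that tested them. The exceptions were *Cdh11*, *Cdh15*, *Itga2*, *Itga5*, *Itga10*, *Itgam* and *Itgb7*. The number of members called ran from 21 (with slide row as a block, which leaves WT replicate 2 as the WT array compared, and with the stricter filter) to 27 (no filter). Leaving out 1 array gave 24 to 25, and the threshold of the study's methods gave 25. Same-numbered samples were not paired by the labels, and their deviations correlated by 0.012, 0.040 and 0.076. The replicate number as a block called 25 members and 10309 genes, beside 10501 without it. The row of the slide gave 8946 genes, and *Itgam* (adjusted p = 0.0728), *Itgb7*, *Cdh11* (0.0627) and *Cdh15* lost their calls there (limma).

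Centering on chromosome medians turned *Cdh11* to 0.28, *Cdh8* to 0.46, *Cdh16* to 0.54, *Itgam* to -0.11 and *Tln1* to -0.056. *Itga10*, whose probes disagree, turned to -0.38 without IG27 replicate 1, -0.37 without IG27 replicate 2 (the same as with the 5 complete arrays, -0.37) and -0.44 without IG27 replicate 3, as the other probe became the brightest, and reached 1.83 without WT replicate 3. Normexp, whose offset of 50 is added to dim and bright signals alike, gave smaller values for dim genes, with -0.61 for *Itga2b* in place of -1.37, and the mean of a gene's probes gave 5.48 for *Itgb3*, 2.42 for *Cdh22*, -2.16 for *Itga3* and -1.46 for *Cdh6*. The median log2 fold change of the tested cadherins moved from -0.15 to -0.025 with normexp, to 0.19 without a filter, where the median of all genes was 0.12, and to 0.46 with chromosome medians taken out. *Itgb3*, *Itgb7*, *Itga2b* and *Cdh15* were not well above background in both groups.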
